A study of Mus musculus with 82 samples.

Results

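The 9 genes described here are Ankrd1, Axl, Lats2, Ajuba, Tead1, Tead4, Wwtr1, Vgll3 and Vgll4, targets and partners of the transcriptional coactivators YAP and TAZ and of the TEAD factors that carry them to DNA. They were picked by name as members of this pathway, with earlier results of these data known. They are 9 of the 55401 genes in the count table. RNA from primary aortic vascular smooth muscle cells (aVSMC) of C57BL/6 mice was sequenced after polyA enrichment, to compare signals through the EGF receptor, the angiotensin II receptor AT1R and the thromboxane receptor TP. All cultures were grown in medium with serum, insulin, EGF, transferrin, hydrocortisone and selenite, then kept for 24 h in medium free of these supplements, in which the agents were also given. The control cultures received that medium alone. The agents were EGF at 10 µg/L, angiotensin II (AngII) at 10 nM and U46619, a stable thromboxane mimetic, at 1 µM. After 24 h incubation there were 7 groups of 6 cultures, 1 culture per mouse and group, which received no agent, EGF, AngII, U46619, EGF+AngII, EGF+U46619 or all 3 agents (EGF+AngII+U46619). After 48 h there were 6 groups in 2 batches, named here by their agents. Control and EGF cultures were in both. U46619 and EGF+U46619 were only in the EGF/U46619 batch, and AngII and EGF+AngII only in the EGF/AngII batch. Each group had 5 cultures per batch, so that control and EGF had 10.

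In the Hippo pathway, the MST kinases (Stk3 and Stk4) activate the LATS kinases, which phosphorylate YAP and TAZ and keep them out of the nucleus. Unphosphorylated YAP and TAZ enter the nucleus, bind TEAD factors and raise transcription of targets such as Ankrd1, Ccn1 and Ccn2, while vestigial-like (VGLL) proteins bind the same TEAD surface and VGLL4 competes with YAP. Stretch and actin tension are known to raise YAP and TAZ activity, and in smooth muscle the TEAD factors also bind promoters of contractile genes.

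The total count was 16483529 to 20818809 per library after 24 h and 19936925 to 33916114 after 48 h. Levels are given as FPM, the fragments of a gene scaled to library size (edgeR's CPM with TMM). A gene was called when its false discovery rate (FDR, Benjamini-Hochberg adjustment over all genes) was under 0.05 by the quasi-likelihood test of edgeR and also by the Wald test of DESeq2, provided that its mean reached 5 FPM in either group. Of all genes, 14528 passed the filter on low counts at both times, and all 9 genes were among them. In GRCm38 they lie apart, for example Ankrd1 at chr19:36111961-36120099 and Axl at chr7:25757273-25788705, both on the minus strand. Lats2 and Ajuba share chromosome 14, Tead4 and Vgll4 chromosome 6, and Axl and Tead1 chromosome 7, while Wwtr1 is on chromosome 3 and Vgll3 on chromosome 16. FDRs below are those of edgeR unless DESeq2 is named.

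Single libraries stood apart at each time. The control library of replicate 4 in the EGF/AngII batch deviated from its group mean in another direction than the cultures of the same set, with correlations over genes of -0.411 to AngII, -0.397 to EGF+AngII and -0.182 to EGF. Over 15796 genes its log2 FPM correlated at 0.995 to 0.997 with the treated libraries of set 2 of that batch and at 0.987 with the control of set 2. With the other 3 libraries of its own set the correlation was 0.939 to 0.941. The control of set 2 also differed from its set, its 4 leukocyte markers summing to 224 FPM beside 37.0 to 38.0 FPM. No refit left out that control alone. The fits keep the replicate 4 control under the mouse number of its label, and whether that label is right was not settled. At 24 h the EGF+AngII+U46619 library of mouse 3 had the lowest values of its group for Vgll4 (7.84 FPM), Tead1 (49.4 FPM), Vgll3 (29.0 FPM), Lats2 (16.5 FPM), Wwtr1 (46.8 FPM) and Ajuba (55.6 FPM). The 48 h fits and paralogue tests below were repeated without the replicate 4 control, and the 24 h fits without the mouse 3 library. Both choices were made after these values were seen.

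Within the control cultures the genes differed in level when counts were scaled to exon length. After 24 h, Axl had a median of 122 FPM per kb of exon, and its lowest culture (63.9) lay above the highest of Wwtr1 (62.4). Wwtr1 followed with a median of 29.2 FPM per kb, Ajuba with 19.2, Vgll3 with 17.2, Vgll4 with 12.6, Tead1 with 11.1 and Lats2 with 11.0. The ranges of these 6 neighbours overlapped. Ankrd1 (median 2.28 FPM per kb) ranged from 0.165 to 22.7 and overlapped every gene but Axl, and Tead4 was the lowest by median at 1.49 FPM per kb (1.01 to 2.48). After 48 h the order of medians was Axl (107 FPM per kb), Wwtr1 (33.5), Vgll3 (25.7), Ankrd1 (23.3), Ajuba (19.2), Lats2 (11.3), Tead1 (10.1), Vgll4 (6.63) and Tead4 (1.49). These 10 cultures include the deviating control library. There the range of Axl (37.3 to 167.9) overlapped that of Wwtr1 (15.8 to 70.0).

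Both pairs of related genes were compared within each control culture, on the log2 scale of FPM per kb, with exact two-sided permutation tests of the sign and adjustment over 4 tests. Tead1 exceeded Tead4 by 2.47 ± 0.63 (SD, n = 6) after 24 h, in 6 of 6 cultures (exact p 0.03125, the smallest this test allows, adjusted 0.0417). Without any 1 of the 6 cultures the difference lay between 2.35 and 2.64, and 5 cultures are too few for this test to give a p under 0.05. After 48 h Tead1 exceeded Tead4 by 2.39 ± 0.34 (SD, n = 10), in 10 of 10 cultures (permutation p 0.00195, the smallest possible, adjusted 0.00391). Averaging the cultures that share a mouse number left 5 values, likewise too few, with a difference of 2.31. Vgll4 and Vgll3 differed by less than their spread after 24 h (-0.05 ± 0.94, SD, n = 6, exact p 0.875), and this difference was positive without mouse 4 (0.084), mouse 5 (0.13) or mouse 6 (0.10). After 48 h Vgll4 lay below Vgll3 in 10 of 10 cultures (-1.77 ± 0.55, SD, n = 10, adjusted permutation p 0.00391), and the difference averaged by mouse number was -1.65. Without the deviating control library the 48 h differences were 2.34 and -1.69 (adjusted p 0.00781 each).

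**Figure D1:**
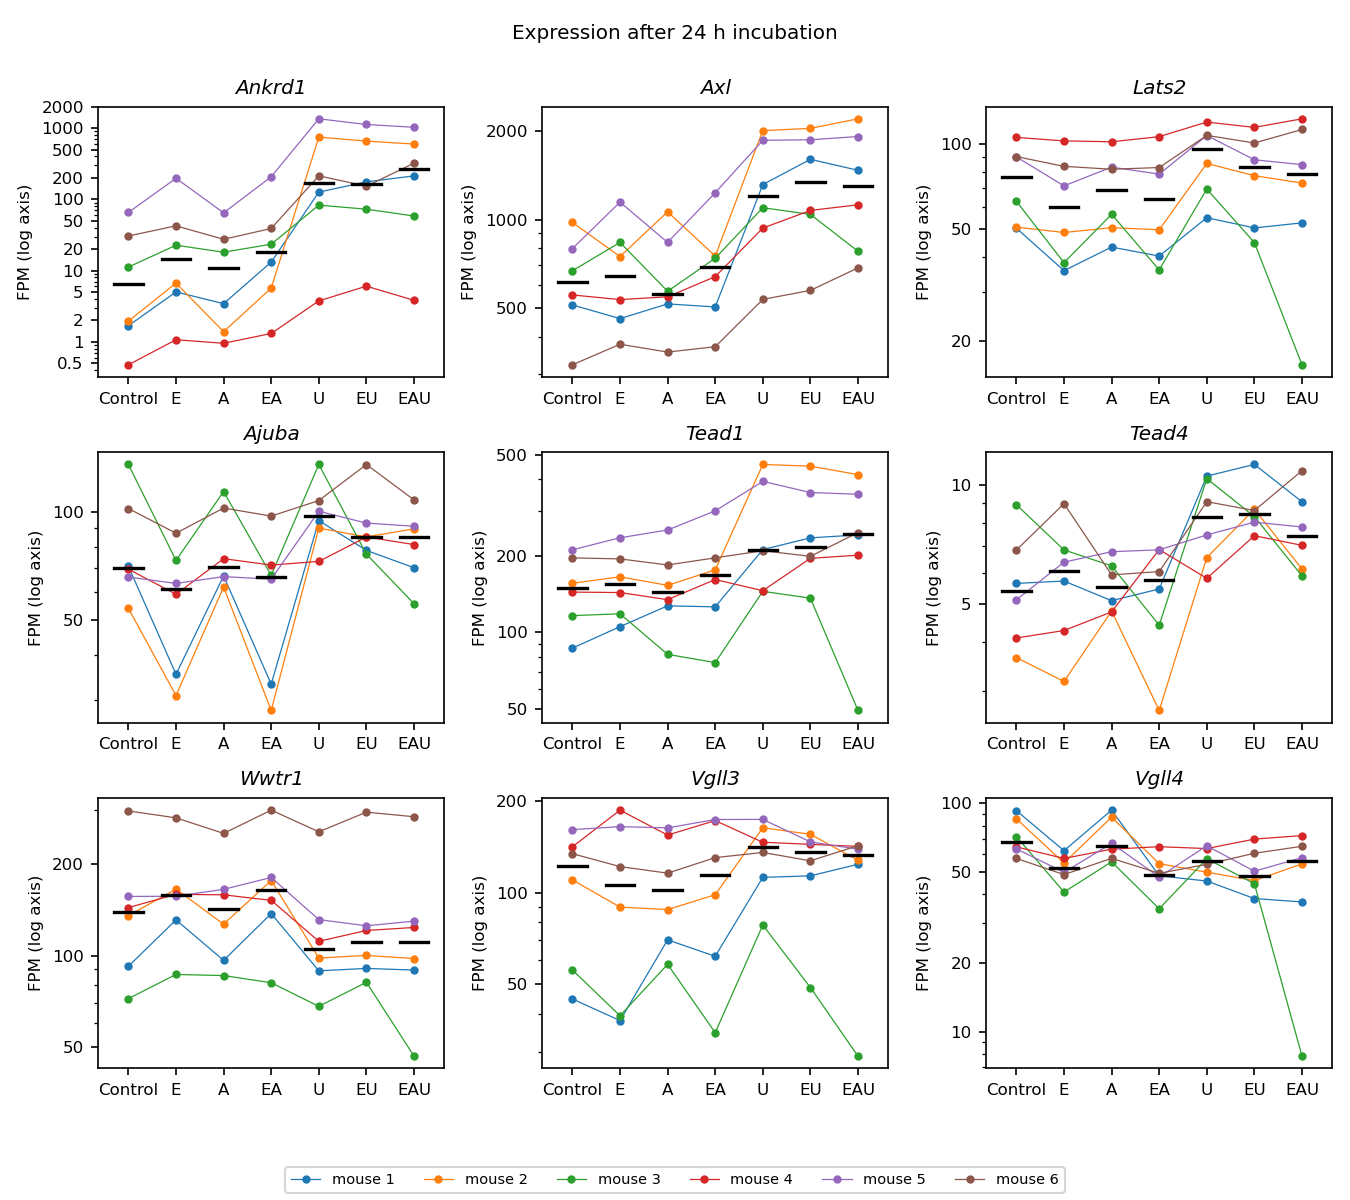
FPM (log axis) of each gene in the 42 libraries after 24 h, with control, EGF (E), AngII (A), EGF+AngII (EA), U46619 (U), EGF+U46619 (EU) and EGF+AngII+U46619 (EAU), lines joining the cultures of 1 mouse and black bars at the medians. Ankrd1 runs from 0.475 to 65.4 FPM in the control and from 3.75 to 1351 FPM with U46619, and the line of each of the 6 mice is higher with U46619.

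The comparisons with control ask what each agent, alone or combined, did to these genes, and all of them at 1 time share the same control cultures. In bulk samples, fewer cells of a type and less RNA per cell cannot be told apart. With U46619 for 24 h, 4 of the 9 genes were called, all higher, where 26.8% of all genes tested were called. EGF+U46619 gave 4 called genes, all higher (32.1% of all genes), and EGF+AngII+U46619 gave 6, of which 4 were higher and 2 lower (33.4%), and 5 by limma-voom. With EGF alone edgeR and DESeq2 called 0 of the 9 (0.0275% of all genes), 2 having an unadjusted p under 0.05, and limma-voom called 0. With AngII alone 0 were called by edgeR, DESeq2 or limma-voom (0% of all genes), with 0 at an unadjusted p under 0.05. With EGF+AngII 0 were called by any of these tools (3.13% of all genes) and 3 had an unadjusted p under 0.05. The counts over all genes behind 2 of these shares varied widely. For EGF (4 genes) DESeq2 alone called 270 and limma-voom 388, and the count was 338 without mouse 6, 16 without mouse 4, 1 without mouse 3 and 0 without mouse 1, 2 or 5. For EGF+AngII (455 genes) DESeq2 alone called 1325 and limma-voom 888, and the count was 1115 without mouse 6, 0 without mouse 1, 2, 3 or 5 and 0 with only the 2 compared groups fitted.

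Without the EGF+AngII+U46619 library of mouse 3, refits of the 24 h data called 6 of the 9 genes with U46619, 5 with EGF+U46619, 4 with EGF+AngII+U46619 and 1 with EGF+AngII (Vgll4, -0.56). Of all genes tested, the same refit called 4697 with U46619 (3893 with the library), 5455 with EGF+U46619 (4666), 5425 with EGF+AngII+U46619 (4849) and 1495 with EGF+AngII (455). Counts of the 9 genes also moved when a mouse was left out. With U46619, 2 were called without mouse 1, 2 or 5, and of all genes 2857, 2438 and 3160. With EGF+AngII+U46619, 3 were called without mouse 1, 4 or 5 (4037, 4530 and 4217 of all genes) and 2 without mouse 2 (3787).

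Direct contrasts ask what a second agent added. EGF+U46619 against EGF gave 6 called genes at 24 h (5 higher, 12.9% of all genes), and U46619 against EGF gave 5 (4 higher, 11.1%). Leaving out mouse 1 or 2 left 2 called genes in EGF+U46619 against EGF, leaving out mouse 4 left 3, and in U46619 against EGF leaving out mouse 2 left 3. The counts over all genes fell as well, in EGF+U46619 against EGF from 1871 to 1064 without mouse 1, 723 without mouse 2, 1093 without mouse 4 and 1055 without mouse 5, and in U46619 against EGF from 1608 to 876, 600, 882 and 903. They rose to 2630 and 2383 without mouse 3, with 7 and 6 of the 9 genes called, and to 2534 and 2197 without only the EGF+AngII+U46619 library of that mouse, with 7 called in each. Newly called were Lats2 in EGF+U46619 against EGF (0.38 without mouse 3, 0.36 without the library, and 0.35 with only the compared groups fitted), Tead1 in U46619 against EGF (0.70 and 0.62) and Tead4 in U46619 against EGF (0.53 without the library, 0.65 without mouse 6, and 0.50 with at least 10 counts required in every library). EGF+U46619 against U46619, EGF+AngII against EGF and EGF+AngII+U46619 against EGF+U46619 each gave 0 called genes of the 9 by edgeR, DESeq2 or limma-voom (0% of all genes each), with 0 at an unadjusted p under 0.05. The interaction of EGF and U46619 also gave 0 of the 9 by these tools (0% of all genes), with 0 at an unadjusted p under 0.05.

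**Figure D2:**
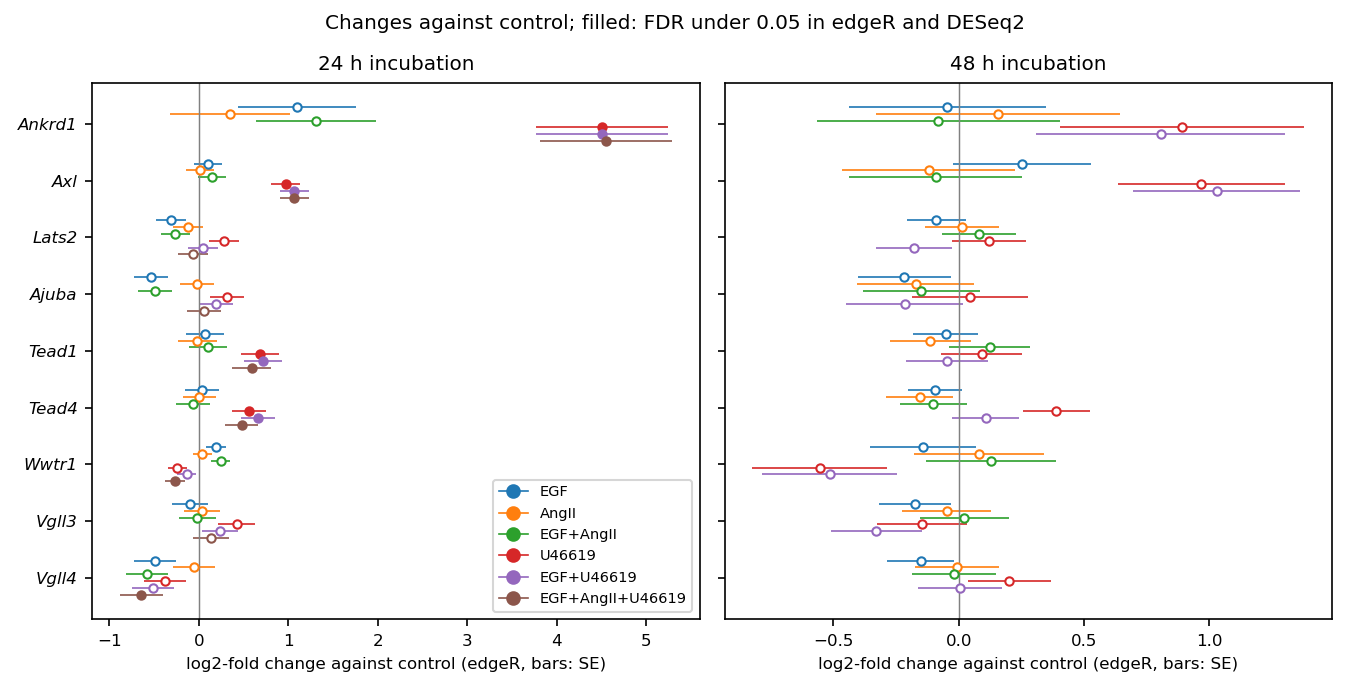
Log2-fold change against control (edgeR, bars show the SE) of each gene in each group after 24 h (left) and 48 h (right), filled where both tools gave an FDR under 0.05. Ankrd1 with U46619 lies at 4.50 after 24 h and, not filled, at 0.89 after 48 h.

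Among the targets, Ankrd1 encodes a nuclear and sarcomeric ankyrin-repeat protein of stressed muscle. It was at 0.475 FPM in the lowest, 6.57 in the median and 65.4 in the highest control culture of the 24 h incubation, and at 3.75, 170 and 1351 FPM with U46619. The groups overlapped, since mouse 4 was the lowest and mouse 5 the highest in both, while within each mouse the U46619 culture was higher (6 of 6). Its log2-fold change was 4.50 (SE 0.74, FDR 4.83e-05) with U46619. The ratio within a mouse was largest in mouse 2 (1.95 FPM in the control, 748 FPM with U46619). Without mouse 2 the change was 3.69, and without mouse 6 it was 5.10.

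Ankrd1 also rose with EGF+U46619 (4.51, SE 0.74, FDR 2.1e-05) and with EGF+AngII+U46619 (4.55, SE 0.74, FDR 1.32e-05), each in 6 of 6 mice. Leaving out mouse 2 gave 3.79 and 3.92, and leaving out mouse 6 gave 5.15 and 5.08. Median levels were 164.3 FPM with EGF+U46619 and 268 FPM with EGF+AngII+U46619. With EGF the median was 14.7 FPM (1.07 to 198), and the change of 1.09 was not called (SE 0.66, FDR 0.385), although 6 of 6 mice were higher. EGF+U46619 exceeded EGF by 3.42 (FDR 0.00121) and differed from U46619 by 0.01 (SE 0.58, FDR 1).

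Axl is a receptor tyrosine kinase for the ligand Gas6. Its control cultures ranged from 322 FPM over a median of 613 to 979, and the U46619 cultures from 536 over 1206 to 2005. The groups overlapped, and mouse 6 was the lowest and mouse 2 the highest in both, with the U46619 culture higher in 6 of 6 mice. The log2-fold change was 0.97 (SE 0.16, FDR 4.64e-05) and lay between 0.90 and 1.05 when any 1 mouse was left out. Axl rose by 1.07 with EGF+U46619 (FDR 6.72e-06) and by 1.07 with EGF+AngII+U46619 (FDR 4.64e-06), each in 6 of 6 mice. With EGF its change was 0.11 (FDR 0.755), and EGF+U46619 exceeded EGF by 0.96 (FDR 0.000169).

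Lats2 is the kinase that phosphorylates YAP and TAZ and is itself a YAP target. Its counts carry an uncertainty, since it shares 2955 exon bases on the same strand with the annotated gene Gm49361. Control cultures lay between 50.4 and 106 FPM (median 76.5) and U46619 cultures between 55.0 and 120 FPM (median 96.6). These ranges overlapped almost wholly, and the change of 0.28 was not called (SE 0.17, FDR 0.202), although 6 of 6 mice were higher. It was called without mouse 3 (0.31), and without only the EGF+AngII+U46619 library of that mouse (0.28). Against EGF (35.6 to 103 FPM, median 60.0) the U46619 cultures were higher in 6 of 6 mice, by 0.59 (SE 0.17, FDR 0.0169). That call was lost without mouse 1 (0.58), mouse 2 (0.54) or mouse 5 (0.58).

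Ajuba encodes a LIM-domain adaptor that binds LATS kinases at cell junctions. Control cultures ran from 53.9 over a median of 70.0 to 135 FPM, EGF cultures from 30.9 over 61.2 to 87.2, and U46619 cultures from 72.8 over 97.5 to 135. The groups overlapped, and Ajuba was lower with EGF than in the control in 6 of 6 mice, a difference (-0.54, SE 0.19, FDR 0.142) that was not called. U46619 exceeded EGF by 0.85 (SE 0.19, FDR 0.00307) and EGF+U46619 exceeded EGF by 0.73 (SE 0.19, FDR 0.00857), each in 6 of 6 mice. The latter call was lost without mouse 1 (0.65) or mouse 2 (0.59). U46619 against control was not called (0.32, SE 0.19, FDR 0.199).

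The TEAD factors bind DNA and recruit YAP, TAZ or VGLL proteins. Tead1 was at 86.8 FPM in the lowest, 150 in the median and 211 in the highest control culture and at 145, 211 and 457 FPM with U46619. The groups overlapped, and the U46619 culture was higher in 6 of 6 mice, by 0.68 (SE 0.22, FDR 0.014). This was not called without mouse 1 (0.58), mouse 2 (0.50) or mouse 5 (0.66). Tead1 rose with EGF+U46619 by 0.72 (FDR 0.00831, 6 of 6 mice) and with EGF+AngII+U46619 by 0.59 (FDR 0.0272, 5 of 6). The former call was lost without mouse 1 (0.59) or mouse 2 (0.55), and the latter without mouse 1 (0.42), mouse 2 (0.42), mouse 4 (0.63) or mouse 5 (0.58), by limma-voom (0.52) and with only the compared groups fitted (0.56). EGF+U46619 exceeded EGF by 0.64 (FDR 0.0367, 6 of 6 mice), a call lost without mouse 1 (0.54), mouse 2 (0.48), mouse 4 (0.67) or mouse 5 (0.64) and with only the compared groups fitted (0.63).

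Tead4 had far fewer counts, with 3.64, 5.37 and 8.93 FPM in the lowest, median and highest control culture and 5.80, 8.29 and 10.6 FPM with U46619. The groups overlapped and 6 of 6 mice were higher with U46619, by 0.56 (SE 0.19, FDR 0.0204). Without mouse 1 (0.49), mouse 2 (0.50) or mouse 5 (0.58) it was not called, nor with no filter on low counts (0.55). The rise with EGF+U46619 was 0.66 (FDR 0.00524, 5 of 6 mice) and was called whichever mouse was left out, but not with only the compared groups fitted (0.66). With EGF+AngII+U46619 it was 0.48 (FDR 0.0392, 5 of 6 mice), and this call was lost without mouse 1 (0.44), mouse 2 (0.43), mouse 4 (0.43), mouse 5 (0.47) or mouse 6 (0.47), with no filter (0.46) and with only the compared groups fitted (0.50). Against EGF, EGF+U46619 was higher by 0.63 (FDR 0.0188, 5 of 6 mice), not called without mouse 1 (0.55), mouse 2 (0.47) or mouse 4 (0.59), with no filter (0.62) or with only the compared groups fitted (0.61).

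Wwtr1 encodes TAZ itself. Control cultures lay at 72.2, 139 and 298 FPM (lowest, median, highest) and U46619 cultures at 68.1, 105 and 255 FPM. The ranges overlapped, while 0 of 6 mice were higher with U46619, and the difference of -0.24 was not called (SE 0.11, FDR 0.0783). It was called without mouse 3 (-0.27) and without only the EGF+AngII+U46619 library of that mouse (-0.24). With EGF+AngII+U46619 Wwtr1 was called lower (-0.27, SE 0.11, FDR 0.0427, 0 of 6 mice higher), and this was lost without the mouse 3 library of that group (-0.18) and without mouse 2 (-0.23), mouse 3 (-0.21), mouse 4 (-0.27) or mouse 5 (-0.25), with no filter on low counts (-0.28) and with only the compared groups fitted (-0.27). U46619 lay below EGF by a log2-fold change of -0.43 (SE 0.11, FDR 0.00661, 0 of 6 mice higher), not called without mouse 2 (-0.37). EGF+U46619 lay below EGF (-0.33, SE 0.11, FDR 0.0329, 1 of 6 mice higher), not called without mouse 1 (-0.29), mouse 2 (-0.25), mouse 4 (-0.33) or mouse 5 (-0.34), with no filter (-0.34) or with only the compared groups fitted (-0.34).

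The vestigial-like proteins Vgll3 and Vgll4 bind TEAD factors in place of YAP and TAZ. Vgll4 was at 57.5, 68.1 and 93.1 FPM in the lowest, median and highest control culture and at 7.84, 56.2 and 72.4 FPM with EGF+AngII+U46619. The lowest value was that of mouse 3, and the groups overlapped. The change of -0.64 was called (SE 0.24, FDR 0.0282), with 2 of 6 mice higher. Without the mouse 3 library of that group it was -0.39 and not called, as without mouse 1 (-0.50), mouse 2 (-0.64) or mouse 3 (-0.35), and with only the compared groups fitted (-0.75). Vgll4 was lower in 6 of 6 mice with EGF (-0.49, SE 0.23, FDR 0.267) and in 5 of 6 with EGF+AngII (-0.58, SE 0.24, FDR 0.125), neither of which was called. The EGF+AngII value was called without the mouse 3 library of the group with all 3 agents (-0.56). EGF+U46619 gave -0.51 (SE 0.24, FDR 0.0813), called without that library (-0.50) and without mouse 3 (-0.47). U46619 alone gave -0.38 after 24 h (1 of 6 mice higher) and 0.20 after 48 h (4 of 5 sets higher). U46619 against EGF gave 0.35 after 48 h (4 of 5 sets higher), and none of these 3 values was called.

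Vgll3 was called in 0 of the comparisons. Its control cultures lay between 44.7 and 161.1 FPM (median 122) and its U46619 cultures between 78.3 and 174.2 FPM (median 141). The ranges overlapped, with 6 of 6 mice higher and a change of 0.42 (SE 0.20, FDR 0.105).

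**Figure D3:**
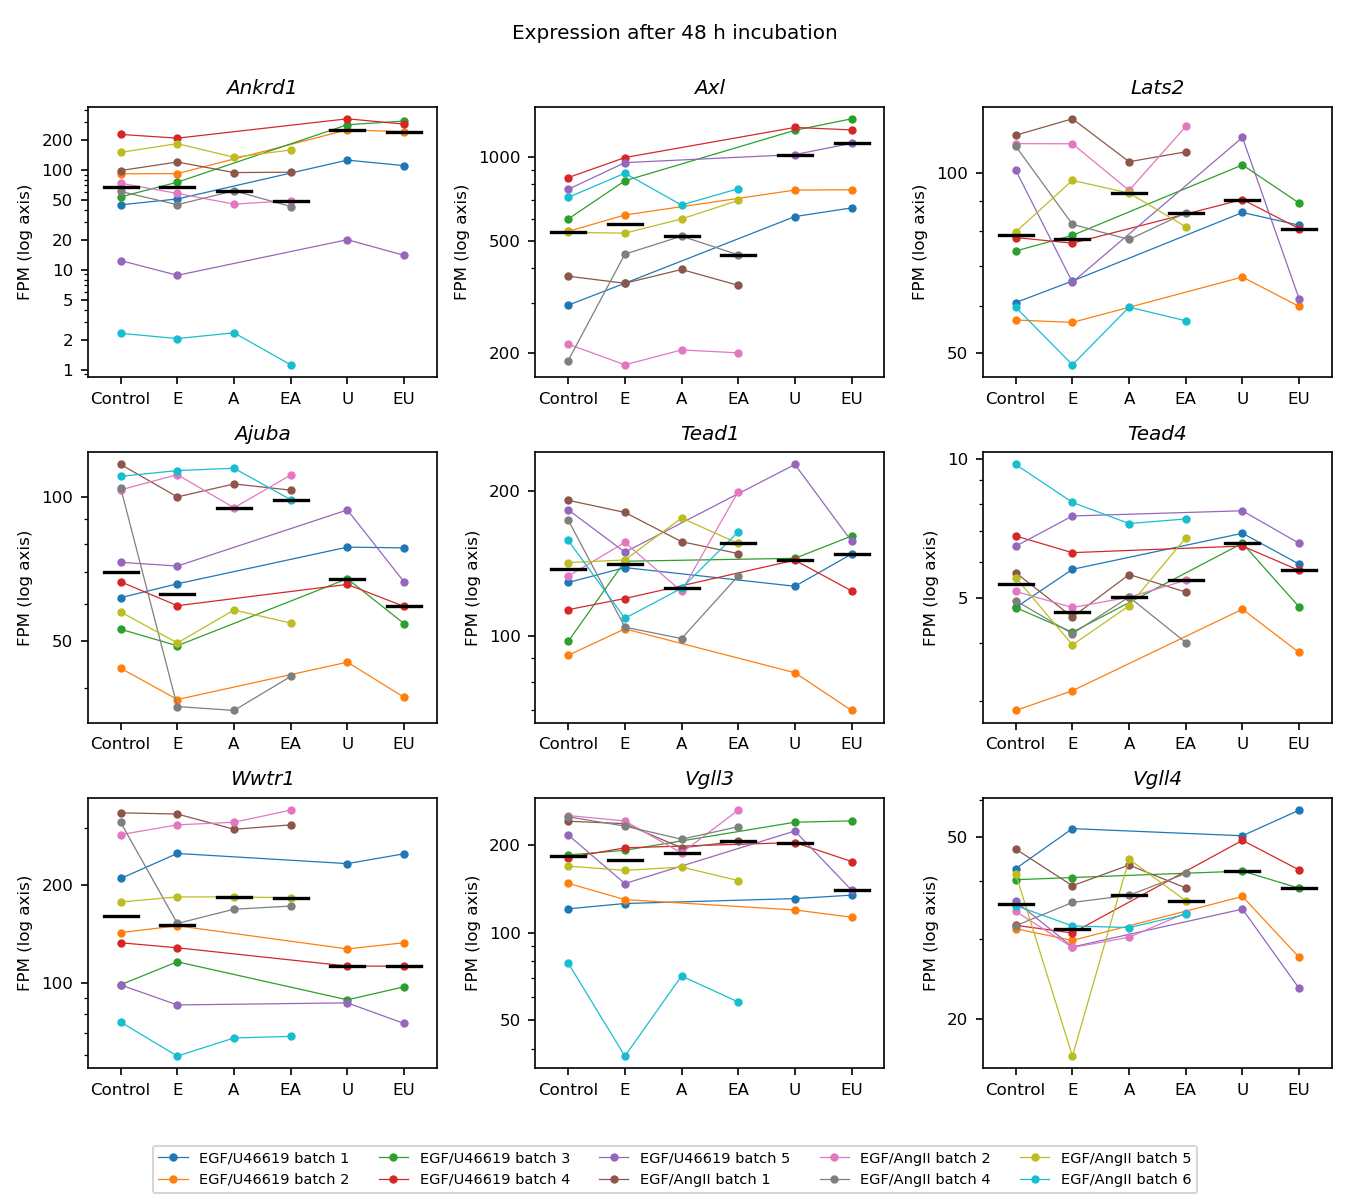
FPM (log axis) of each gene in the 40 libraries after 48 h, groups as control, EGF (E), AngII (A), EGF+AngII (EA), U46619 (U) and EGF+U46619 (EU), lines joining the cultures of 1 culture set and black bars at the medians. The 5 U46619 cultures have 613 to 1277 FPM of Axl and the 10 control cultures 187.5 to 845 FPM.

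After 48 h fewer of the 9 genes were called in the fit by mouse number. The counts depended on the replicate block, and those with the culture set as the block are given below. U46619 against control gave 0 by edgeR with DESeq2 (4.03% of all genes), with 3 at an unadjusted p under 0.05, 2 by DESeq2 alone and 0 by limma-voom. EGF+U46619 against control gave 0 (6.85% of all genes), with 1 at an unadjusted p under 0.05, 1 by DESeq2 alone and 1 by limma-voom. U46619 against EGF gave 1, Tead4 (3.21% of all genes), and EGF+U46619 against EGF gave 0 (4.81% of all genes) by each tool, with 1 at an unadjusted p under 0.05. EGF, AngII and EGF+AngII against control, EGF+U46619 against U46619, EGF+AngII against EGF and the interaction of EGF and U46619 each gave 0 by edgeR, DESeq2 or limma-voom (0% of all genes each), with 0 at an unadjusted p under 0.05. The difference between 24 h and 48 h was not tested. Without the deviating control library the counts of the 9 genes were the same, and of all genes 551 were called with U46619 (585 with it), 922 with EGF+U46619 (995), 772 in EGF+U46619 against EGF (699) and 547 in U46619 against EGF (467). These counts over all genes, in the same order, were 145, 362, 233 and 124 without replicate 3 of the EGF/U46619 batch, 229, 615, 444 and 217 without its replicate 2, 262, 587, 367 and 222 without its replicate 4, and 310, 891, 496 and 223 without its replicate 1. With only the compared groups fitted they were 278, 482, 1 and 7, with the batch as a further term 213, 485, 342 and 208, without a replicate block 109, fewer than 200, 100 and 64, and with no filter on low counts 313, 619, 401 and 237. Higher counts over all genes came with the culture set as the replicate block (1546, 2170, 1905 and 1495). They were also higher in the EGF/U46619 batch alone (1589, 2221, 797 and 529). The EGF+U46619 count against control was 1 without replicate 2 or replicate 5 of the EGF/AngII batch, the gene being Axl (0.95 and 1.08), where 882 and 1059 of all genes were called.

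Axl was at 613, 763, 1247, 1277 and 1021 FPM in the 5 U46619 cultures and at 659, 765, 1371, 1251 and 1120 FPM in the 5 EGF+U46619 cultures. The control cultures of the same sets were at 296, 543, 601, 845 and 767 FPM, so that each treated culture exceeded its own control (5 of 5) while the groups overlapped. Over all 10 control cultures the change was 0.97 with U46619 (SE 0.33, FDR 0.0838, DESeq2 0.0496) and 1.03 with EGF+U46619 (SE 0.33, FDR 0.0509, DESeq2 0.0258), and neither was called. Without the deviating control library these values were 0.86 (FDR 0.121) and 0.92 (FDR 0.0733). With the culture set as the block the changes were 0.69 and 0.77, both called, though neither was called in the EGF/U46619 batch alone.

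Ankrd1 was at 125, 252, 284, 325 and 20.05 FPM in the U46619 cultures, at 111, 241, 308, 288 and 14.0 FPM in the EGF+U46619 cultures and at 44.8, 91.6, 53.8, 227 and 12.4 FPM in the controls of these sets. Set 5 of the batch was the lowest in each group, and 5 of 5 cultures exceeded their control with either treatment. The changes of 0.89 (SE 0.49, FDR 0.282) and 0.81 (SE 0.50, FDR 0.314) were not called. With the culture set as the block they were 1.26 and 1.14, both called, though neither was called in the EGF/U46619 batch alone. Tead4 was at 6.92, 4.74, 6.58, 6.49 and 7.74 FPM with U46619 and at 5.78, 3.16, 4.23, 6.28 and 7.54 FPM with EGF in the same sets, higher with U46619 in 5 of 5, though the groups overlapped. U46619 exceeded EGF by 0.49 (SE 0.13, FDR 0.0338), and by 0.49 (FDR 0.0304) without the deviating control library. This call was lost without replicate 1 (0.53), 2 (0.46) or 3 (0.46) of the EGF/U46619 batch and without replicate 1 (0.47), 2 (0.47) or 6 (0.48) of the EGF/AngII batch, with the batch as a further term (0.39), with no filter on low counts (0.48) and with only the compared groups fitted (0.46).

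In the fit by mouse number over both batches, Wwtr1 had the largest negative change of the 9 at 48 h. It was -0.55 with U46619 (SE 0.27, FDR 0.224) and -0.52 with EGF+U46619 (SE 0.27, FDR 0.234), neither called. The rank was not the same in every refit. In the 5 sets it was at 233, 127, 88.7, 113 and 86.8 FPM with U46619, at 250, 133, 97.3, 113 and 75.0 FPM with EGF+U46619 and at 210, 143, 98.7, 133 and 98.6 FPM in the control, lower than its control in 4 of 5 with either treatment. Without the deviating control library the changes were -0.35 and -0.32, and without all of replicate 4 of that batch -0.30 and -0.28. Without replicate 1 of the EGF/U46619 batch they were -0.80 and -0.79. With the culture set as the block they were -0.21 and -0.19, with the batch as a further term -0.19 and -0.16, and in the EGF/U46619 batch alone -0.09 and -0.07.

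The labels give 5 mouse numbers for the 10 culture sets at 48 h, and the mouse number was the pairing term of the fit. With the culture set as the replicate block instead, 3 of the 9 genes were called with U46619, 2 with EGF+U46619, 2 in EGF+U46619 against EGF and 4 in U46619 against EGF, beside 1546, 2170, 1905 and 1495 of all genes. The U46619 changes were then 1.26 for Ankrd1 (FDR 5.44e-05), 0.69 for Axl and 0.32 for Lats2, each called, and those with EGF+U46619 were 1.14 for Ankrd1 and 0.77 for Axl. Within the EGF/U46619 batch alone 0 of these were called, where 1589 (U46619) and 2221 (EGF+U46619) of all genes were. The values there were 1.16 for Ankrd1, 0.68 for Axl and 0.31 for Lats2 with U46619 and 1.04 for Ankrd1 and 0.75 for Axl with EGF+U46619, and Tead4 in U46619 against EGF was 0.31, also not called.

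The other pathway genes were read from 3 lists, also chosen with earlier results of these data known. All 17 Hippo kinases and scaffolds were tested, 4 of 10 further YAP and TAZ partners and 15 of 17 further targets. The untested partners were Yap1, Amot, Amotl1, Amotl2 and Limd1, and the untested targets Nt5e and Rbms3. All 7 lie on chromosomes 9 or X, where every gene is listed at 0, as on Y and the mitochondrial chromosome (7075 genes in all). Vgll2 did not pass the filter on low counts.

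With U46619 for 24 h, 7 of the 15 further targets were called, 6 higher and 1 lower, where 26.8% of all genes were called. Their median log2-fold change was 0.38, beside -0.06 for all genes tested and 0.42 for the 9 genes. The secreted matricellular proteins Ccn2 and Ccn1 rose by 2.74 (FDR 0.000101) and 1.48 (FDR 0.00193). Dock5 (1.21) and Nuak2 (1.16) rose too, and Igfbp3, which binds insulin-like growth factors, fell by 1.56 (FDR 0.00151). Of the 17 kinases and scaffolds 3 were called (median 0.23), beside the same 26.8% of all genes. Stk4 was higher (0.54), and the cadherin Fat4 (-1.69) and Taok2 (-0.26) were lower. Of the 4 partners 1 was called (median -0.14, again beside 26.8%), Tead2 with -0.52. Stk3 (0.07), Lats1 (0.23) and Tead3 (-0.02) were not called.

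With EGF+U46619 for 24 h, 6 of the 15 further targets were called, 5 higher and 1 lower, where 32.1% of all genes were called (median 0.30 beside -0.05 for all genes and 0.24 for the 9 genes). Ccn2 rose by 2.32, Dock5 by 1.55, Ccn1 by 1.22 and Nuak2 by 1.08, and Igfbp3 fell by 1.86. Among the 17 kinases and scaffolds 5 were called, beside the same 32.1% of all genes (median 0.21). Stk4 (0.56), Mob1b (0.56) and Wwc2 (0.45) were higher, and Fat4 (-1.34) and Taok2 (-0.24) lower. Of the 4 partners 0 were called by edgeR, DESeq2 or limma-voom, with 0 at an unadjusted p under 0.05 (median -0.13). After 48 h the targets called were Dock5 (1.06) and Myof (0.54) with U46619 (4.03% of all genes), and Dock5 (1.06), Myof (0.58) and Tgfb2 (-0.93) with EGF+U46619 (6.85%), Myof being named after its values were seen. Of the kinases and scaffolds, Fat4 was called with EGF+U46619 (-0.997).

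The identity of the cultures was read from marker lists. Of 9 smooth muscle markers 7 had counts. Tagln and Cnn1, both on chromosome 9, were at 0 in all libraries. The summed level of this list in the 24 h control cultures was 2100, 4258 and 8070 FPM (lowest, median, highest) and with U46619 5982, 14975 and 21420 FPM. Acta2 or Cald1 was the most abundant in each library. With U46619 at 24 h Acta2 was the largest part of the sum in each mouse, for example 14753 of 18258 FPM in mouse 1. Acta2 (2.05), Tpm2 (1.39), Cald1 (0.94) and Lmod1 (0.84) were called higher with U46619. No change is given here for Myh11, Smtn and Des, which also had counts.

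All 6 fibroblast markers had counts, and their sum was 361, 633 and 928 FPM in the control and 224, 261 and 663 FPM with U46619, with Pdgfra or Ly6a the most abundant. Scara5 (-3.29), Pi16 (-1.47), Dpt (-1.09), Pdgfra (-0.98) and Ly6a (-0.95) were called lower. Of 4 endothelial markers Cdh5 was at 0 in all libraries and 3 had counts, summing to 4.11, 151.4 and 1139 FPM in the control and 2.20, 120 and 1009 FPM with U46619, with Pecam1, Vwf or Kdr the most abundant. Cdh5 lies on chromosome 8, where other genes such as Fat1 had counts, and the reason for its 0 was not tested. The 4 leukocyte markers summed to 16.7, 62.4 and 110 FPM in the control and 9.79, 25.1 and 52.8 FPM with U46619. Lyz2 was the most abundant in each 24 h library and was called lower (-1.31), while Ptprc did not exceed 0.0541 FPM at 24 h. Median sums at 24 h with EGF+U46619 and with EGF+AngII+U46619 were 12413 and 11856 FPM for smooth muscle, 282 and 277 FPM for fibroblast, 128 and 113 FPM for endothelial and 17.3 and 21.9 FPM for leukocyte markers. With U46619 the glial marker S100b was called lower (-2.66), also after 48 h (-1.48). After 48 h the sums are given for the 5 sets of the EGF/U46619 batch, in the order of their numbers, each with its own control. The fibroblast sum was 382, 1064, 920, 606 and 1306 FPM with U46619 and 568, 1568, 1259, 953 and 1635 FPM in the control, lower in 5 of 5. The leukocyte sum was 32.7, 28.3, 53.0, 55.2 and 30.3 FPM with U46619 and 80.5, 37.0, 124, 103 and 43.4 FPM in the control, also lower in 5 of 5. The endothelial sum was 575, 64.7, 63.7, 128 and 12.1 FPM with U46619 and 586, 67.5, 85.2, 125 and 12.3 FPM in the control. The smooth muscle sum was 6130, 3848, 7555, 8540 and 2993 FPM with U46619 and 5527, 3042, 6505, 10936 and 3446 FPM in the control, higher in 3 and lower in 2. With EGF+U46619 in the same sets the fibroblast sum was 414, 979, 877, 586 and 1377 FPM and the leukocyte sum 30.3, 20.5, 47.1, 52.4 and 24.6 FPM, both lower than in the control in 5 of 5. The endothelial sum was then 619, 58.0, 61.5, 133 and 4.63 FPM and the smooth muscle sum 5694, 3097, 6511, 7272 and 1799 FPM. The part of these markers in the result was not tested.

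The 9 genes varied together in different degrees over the 42 libraries of the 24 h incubation, which share mice and treatments, after the mean of each mouse was taken off the log2 FPM. Pearson's r was highest between Ankrd1 and Axl (0.894), followed by Ankrd1 and Tead1 (0.839) and Axl and Tead4 (0.836). It was lowest between Axl and Wwtr1 (-0.657), and Wwtr1 with Ajuba (-0.613) and with Ankrd1 (-0.599) were also negative. Vgll4 with Tead1 gave 0.00386.

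Among 10153 genes, those with a pattern most like a gene of the 9 were found over the same 42 libraries by the same r. For Ankrd1 these were Arpc5 (0.974), Ripk2 (0.969) and Uck2 (0.969), and for Axl Krt80 (0.964), Thbs1 (0.964) and Lrrc32 (0.960). Lats2 was followed by Rsu1 (0.927), Sync (0.896) and Nf2 (0.886), and Ajuba by Lims2 (0.937), Bid (0.931) and Zyx (0.918). For the TEAD factors they were Lpp (0.968), Myh9 (0.962) and Wwc2 (0.954) with Tead1, and Mprip (0.896), Myo1c (0.890) and Map6 (0.870) with Tead4. Wwtr1 had Eif2ak3 (0.903), Pcdh18 (0.892) and Ano3 (0.888). Vgll3 had Klf6 (0.890), Nuak1 (0.873) and Wwc2 (0.818), and Vgll4 had Zscan25 (0.932), Flywch1 (0.921) and Narf (0.915).

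The TEAD motif was looked up in promoters because several of the genes rose together. RefSeq promoters of build GRCm38.p6, from 250 bases before to 50 bases after a start, matched 7 of the 9 genes in 9 windows. Tead1 and Tead4 had no entry. The TEAD letters CATTCC, or GGAATG on the other strand, were in all 7 genes matched and in 8 of the 9 windows, 2 of which overlap at Wwtr1 and hold the same site, against 14.7% of 32851 promoters (4817). Ankrd1 and Ajuba held 2 copies each, where 1.36% of all promoters held 2 or more. Among the lists they were in 4 of 14 kinases and scaffolds, 5 of 9 partners and 2 of 10 further targets. The SRF CArG box, whose ends can overlap these letters, was in 0 of the 7 genes (1.63% of all promoters). The Lats2 site lies after the start and in 1 of its 2 windows. Of the genes with the letters, Wwtr1 (-0.24) and Vgll4 (-0.38) had negative changes with U46619 at 24 h, neither called. The others had positive changes. A match is only a run of letters, and its part in any change was not tested.

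Starts here are those of the promoter set and differ from the gene ends of the annotation used for positions, within whose bounds the bases shown for Ankrd1 and Vgll4 lie. Among the genes described here, Ankrd1 had the highest fold change. The 250 bases before that start of Ankrd1 lie on the minus strand at chr19:36119845-36120094 and read 5′ to 3′, with the motif in capitals:
Ankrd1: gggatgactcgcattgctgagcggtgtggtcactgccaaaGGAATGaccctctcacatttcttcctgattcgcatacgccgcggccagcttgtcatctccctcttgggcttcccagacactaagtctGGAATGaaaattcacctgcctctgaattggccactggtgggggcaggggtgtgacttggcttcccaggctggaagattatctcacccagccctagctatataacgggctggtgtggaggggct

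The 26 bases around each motif before such a start in the other genes, shown to compare what flanks the same 6 letters, are given along the strand of the gene, 5′ to 3′, with the motif in capitals. Their windows are chr7:25788684-25788983 (Axl, minus strand), chr14:54577612-54577911 (Ajuba, minus), chr3:57575827-57576126 (Wwtr1, minus), chr16:65814939-65815238 (Vgll3, plus) and chr6:114969154-114969453 (Vgll4, minus), all in GRCm38.p6:
Axl: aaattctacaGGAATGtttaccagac
Ajuba first: ttgatggataCATTCCacagtgcccc
Ajuba second: cccctccgcgCATTCCaactgtaaac
Wwtr1: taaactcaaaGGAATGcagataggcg
Vgll3: cgcctccccaCATTCCggctaccctg
Vgll4: agtggggtggGGAATGctgagaaatg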

How the data were processed

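The deposited values are counts per gene, made by the authors from paired-end reads aligned to mm10 (GRCm38) with HISAT2 2.1.0 and counted over exons with featureCounts, with reads that align to several places included. They are whole numbers with no normalization, and 0 columns were left unused. In R 4.3.3, each time was fitted once with treatment and mouse number as terms, with edgeR 4.0.16 (TMM, filterByExpr, which kept 14653 genes at 24 h and 15796 at 48 h, quasi-likelihood test) and DESeq2 1.42.0 (Wald test). limma 3.58.1 gave limma-voom. P-values were adjusted over all genes of a fit. SEs are those implied by edgeR's statistic. Paralogues were compared on log2 of FPM per kb of exon plus 0.5. Figures were drawn with Matplotlib 3.10.9 in Python 3.11.15.

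Whether cultures of 1 mouse at 24 h, and of 1 culture set at 48 h, are paired was checked from correlations of deviations from group means. Within a mouse at 24 h, 126 of 126 pairs of groups were over 0.1 (minimum 0.395, median 0.776), and within a culture set at 48 h 57 of 60 were (minimum -0.411, median 0.785), the exceptions being pairs with 1 control library. Pairs that share a mouse number but not a culture set were not examined at 48 h. The check there thus covers the culture set, not the mouse number used in the fit. The labels supplied the mouse numbers at 48 h, although according to the methods every replicate came from its own mouse.

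The genes and lists were chosen with earlier results of these data known. Of the other pathway genes, up to 4 per list and direction with the largest changes among those called with U46619 or EGF+U46619 are named, with Ccn1, Ccn2, Yap1, Stk3, Stk4, Lats1, Tead2 and Tead3 always, and for each of the 9 genes the 3 most like it.

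The summed level of 1 planned list of cell type markers is not reported here.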

Additional observations from a re-analysis of the deposited data

Results flagged for a closer look

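In each group of 4 to 10 cultures, the gap between an extreme value and its neighbour was compared with the whole range of the group, both on the scale of log2(FPM + 0.5) (Dixon's test at 95%). Chance gives about 1 in 20 groups, and 12 of 117 groups had such a value. At 24 h, 3 of them came from the EGF+AngII+U46619 culture of mouse 3, which was far below the others of its group for Tead1 (49.4 FPM), Vgll3 (29.0 FPM) and Vgll4 (7.84 FPM). The EGF+U46619 culture of the same mouse was far below its group for Vgll3 (48.8 FPM). In the EGF+U46619 group, mouse 6 was far above the others for Ajuba (135 FPM) and Wwtr1 (295 FPM), and mouse 1 for Tead4 (11.3 FPM).

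After 48 h the other values came from the EGF/AngII batch and all were low. Set 6 was far below the others for Ankrd1 with AngII (2.35 FPM) and with EGF+AngII (1.12 FPM), and for Vgll3 with AngII (71.0 FPM) and with EGF (37.7 FPM). Set 5 was far below the others for Vgll4 with EGF (16.6 FPM). For 0 of the genes did every culture move one way at 24 h and every culture the other way at 48 h, and the difference between the times was not tested.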

How the results depend on the processing

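The changes of the 9 genes against control, and in other contrasts those called or at an unadjusted p under 0.05, were 118 results, refitted 2358 times. Direction and call were kept in 2097 refits, a call was lost in 88 and gained in 31, and the sign changed in 142, 0 of them for a called result. For 80 further contrasts that were not called, 1529 of 1647 refits kept direction and call, 115 had the other sign and 3 gave a call. The cause of the changes below was not tested.

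Counts of members called moved under these alternatives. Without a replicate block at 24 h, 1 was called with U46619, 2 with EGF+U46619, 2 with EGF+AngII+U46619 and 0 in EGF+U46619 or U46619 against EGF, where of all genes 1037, 1826, 2143, 105 and 24 were called (3893, 4666, 4849, 1871 and 1608 with the block). With only the compared groups fitted, EGF+AngII+U46619 gave 2 (1388 of all genes). Without the mouse 3 library of that group, EGF+AngII gave 1 (1495 of all genes, 455 with it). Of all genes, EGF gave 4, but 243 with the likelihood ratio test and 142 with no filter on low counts, and EGF+AngII gave 986 with the likelihood ratio test. With the culture set as the replicate block at 48 h, the members called were 3 with U46619, 2 with EGF+U46619, 2 in EGF+U46619 against EGF and 4 in U46619 against EGF (of all genes 1546, 2170, 1905 and 1495, beside 585, 995, 699 and 467 with the mouse number). DESeq2 alone gave 2 with U46619 (952 of all genes). EGF+U46619 gave 1 with DESeq2 alone (1452), limma-voom (976), the likelihood ratio test (1128), DESeq2 size factors (999) or at least 10 counts in every library (998). U46619 against EGF gave 0 without a replicate block (64 of all genes), with the batch as a further term (208), in the EGF/U46619 batch alone (529), with no filter on low counts (237) and with only the compared groups fitted (7). Leaving out 1 replicate at a time, the members called at 24 h were 2 to 6 with U46619 (2438 to 4429 of all genes), 2 to 5 with EGF+AngII+U46619 (3787 to 5166), 2 to 7 in EGF+U46619 against EGF (723 to 2630) and 3 to 6 in U46619 against EGF (600 to 2383), and at 48 h 0 to 1 with EGF+U46619 (362 to 1149) and 0 to 1 in U46619 against EGF (124 to 497).

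Tead1 exceeded Tead4 at 24 h by 2.35 to 2.64 when 1 replicate was left out, and Vgll4 minus Vgll3 ranged from -0.33 to 0.13. At 48 h, averaging by mouse number gave 2.31 and -1.65. With 5 values, as in these alternatives, the exact test cannot give a p under 0.05.

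The log2-fold changes against control that had the other sign, none of them called, were these.
Without a replicate block at 24 h, Ajuba was -0.0052 with EGF+AngII+U46619 and Lats2 was 0.039 with EGF+AngII+U46619. Tead1 was 0.036 with AngII and Tead4 was -0.028 with AngII. Vgll3 was 0.053 with EGF+AngII and Wwtr1 was -0.023 with AngII. Without a replicate block at 48 h, Ajuba was 0.053 with AngII, 0.052 with EGF+AngII and -0.17 with U46619 and Ankrd1 was -0.27 with AngII and 0.051 with EGF. Tead4 was 0.021 with EGF+AngII and -0.080 with EGF+U46619 and Vgll3 was -0.019 with EGF+AngII. Vgll4 was 0.0062 with AngII. With the culture set as the replicate block at 48 h, Ankrd1 was -0.18 with AngII and Axl was 0.29 with AngII and 0.28 with EGF+AngII. Lats2 was -0.15 with AngII, -0.094 with EGF+AngII and 0.030 with EGF+U46619 and Tead1 was 0.0016 with EGF+U46619. Tead4 was -0.00087 with EGF+U46619 and Vgll3 was -0.15 with EGF+AngII and 0.044 with U46619. Vgll4 was 0.045 with AngII, 0.031 with EGF+AngII and -0.084 with EGF+U46619 and Wwtr1 was -0.15 with AngII and -0.11 with EGF+AngII. With the batch as a further term at 48 h, Ankrd1 was -0.083 with AngII and Axl was 0.30 with AngII and 0.32 with EGF+AngII. Lats2 was -0.16 with AngII, -0.092 with EGF+AngII and 0.014 with EGF+U46619 and Tead4 was 0.0074 with EGF+AngII and -0.0012 with EGF+U46619. Vgll3 was -0.14 with EGF+AngII and 0.045 with U46619 and Vgll4 was 0.050 with AngII, 0.038 with EGF+AngII and -0.055 with EGF+U46619. Wwtr1 was -0.17 with AngII and -0.12 with EGF+AngII. In the EGF/U46619 batch alone at 48 h, Lats2 was 0.024 with EGF+U46619 and Tead1 was 0.12 with EGF and 0.10 with EGF+U46619. Tead4 was 0.062 with EGF and Vgll3 was 0.080 with U46619. Vgll4 was -0.0038 with EGF+U46619 and Wwtr1 was 0.080 with EGF. In the EGF/AngII batch alone at 48 h, Ankrd1 was -0.14 with AngII and Axl was 0.29 with AngII and 0.31 with EGF+AngII. Lats2 was -0.16 with AngII and -0.094 with EGF+AngII and Tead1 was -0.017 with EGF+AngII. Vgll3 was -0.18 with EGF+AngII and Wwtr1 was -0.24 with AngII and -0.20 with EGF+AngII. With only the compared groups fitted at 24 h, Tead1 was 0.011 with AngII and Vgll3 was 0.0017 with EGF+AngII. With only the compared groups fitted at 48 h, Ajuba was -0.0063 with U46619 and Ankrd1 was -0.054 with AngII. Lats2 was -0.020 with AngII and Vgll3 was -0.015 with EGF+AngII. Vgll4 was 0.00015 with AngII. With limma-voom at 24 h, Tead1 was 0.012 with AngII and Vgll3 was 0.00020 with EGF+AngII. With limma-voom at 48 h, Ankrd1 was 0.12 with EGF+AngII and Vgll4 was -0.032 with EGF+U46619. With at least 10 counts in every library at 24 h, Vgll3 was 0.0021 with EGF+AngII. With at least 10 counts in every library at 48 h, Vgll4 was -0.017 with EGF+U46619. Without the deviating control library at 48 h, Ankrd1 was 0.16 with EGF and 0.16 with EGF+AngII and Vgll4 was -0.0043 with EGF+U46619. Wwtr1 was 0.059 with EGF. Without the EGF+AngII+U46619 library of mouse 3 at 24 h, Lats2 was 0.15 with EGF+AngII+U46619.

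Leaving out 1 replicate at a time, these log2-fold changes against control, none of them called, crossed 0.
At 24 h Ajuba ranged from -0.061 to 0.038 with AngII and from -0.089 to 0.31 with EGF+AngII+U46619. Axl ranged from -0.0059 to 0.065 with AngII. Lats2 ranged from -0.17 to 0.20 with EGF+AngII+U46619 and from -0.056 to 0.17 with EGF+U46619. Tead1 ranged from -0.11 to 0.10 with AngII. Tead4 ranged from -0.081 to 0.14 with AngII, from -0.023 to 0.15 with EGF and from -0.23 to 0.15 with EGF+AngII. Vgll3 ranged from -0.053 to 0.10 with AngII, from -0.080 to 0.11 with EGF+AngII and from -0.14 to 0.32 with EGF+AngII+U46619. Vgll4 ranged from -0.086 to 0.014 with AngII. Wwtr1 ranged from -0.0099 to 0.10 with AngII. At 48 h Ajuba ranged from -0.25 to 0.12 with AngII, from -0.27 to 0.11 with EGF+AngII and from -0.15 to 0.14 with U46619. Ankrd1 ranged from -0.23 to 0.38 with AngII, from -0.10 to 0.011 with EGF and from -0.29 to 0.16 with EGF+AngII. Axl ranged from -0.30 to 0.12 with AngII and from -0.37 to 0.15 with EGF+AngII. Lats2 ranged from -0.058 to 0.11 with AngII. Tead1 ranged from -0.23 to 0.067 with AngII, from -0.11 to 0.023 with EGF, from -0.17 to 0.024 with EGF+U46619 and from -0.10 to 0.14 with U46619. Tead4 ranged from -0.21 to 0.0070 with EGF+AngII. Vgll3 ranged from -0.13 to 0.0073 with AngII and from -0.063 to 0.10 with EGF+AngII. Vgll4 ranged from -0.082 to 0.058 with AngII, from -0.14 to 0.023 with EGF+AngII and from -0.19 to 0.15 with EGF+U46619. Wwtr1 ranged from -0.034 to 0.18 with AngII and from -0.19 to 0.015 with EGF.

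The depth was 16483529 to 33916114 counts per library, and Tead4 had 58 to 218 counts per library after 24 h. The alternatives that leave out the deviating control library or the mouse 3 library were chosen after seeing the data. Cells were grown in medium with EGF before the unsupplemented 24 h. No marker of purity was used beyond the lists given, and protein and phosphorylation of YAP or TAZ were not analysed here.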
